A study of Rattus norvegicus with 27 samples.

Results

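The hippocampus of rats made diabetic with streptozotocin was compared with the hippocampus of untreated rats. The comparison rests on 6 arrays of the 27 in the series, 3 for each group, chosen by their labels alone. Streptozotocin-treated rats were male Wistar rats injected through the tail vein at 6 weeks of age with 65 mg per kg, kept for 4 weeks, taken at 10 weeks of age, and included only where plasma glucose was above 15 mmol/l (labelled mean blood sugar 26.34 mmol/l). Control rats were male Wistar rats of 10 weeks with a labelled mean blood sugar of 7.64 mmol/l, and the sources used here mention no vehicle injection for them. Male Goto-Kakizaki rats of 10 weeks, a strain with inherited diabetes (labelled mean blood sugar 13.9 mmol/l), were on further arrays and are used only for a short comparison at the end. The groups had free access to chow and water. Each array held the RNA of 1 pool of 3 rats, 9 rats in a group, so the spread between arrays is one between pools of different animals. The prefrontal cortex and striatum of the same animal groups were on other arrays and serve here to show where the hippocampus differed.

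Streptozotocin enters pancreatic beta cells, the source of insulin, and destroys them, which leaves the animal with little insulin and high blood glucose. The hippocampus, a seat of spatial and episodic memory, carries insulin receptors, takes up glucose largely without insulin, and is a target of glucocorticoids. Its excitatory neurons, interneurons, astrocytes and microglia all contribute RNA to a dissected piece of tissue, and so do the choroid plexus and meninges where they adhere to it.

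Signal was measured with 60-base probes on a one-colour array. A level is given below as log2 of the signal minus log2 of the 75th percentile of the array, so that 0 is the 75th percentile and 1 unit is a doubling. Probes entered the test where 2 or more of the 3 arrays of either group had spots well above background, which left 30504 of 41012 probes, 30493 of them with values in both groups. Differences are streptozotocin minus control with their standard error (SE) from limma, with p-values adjusted over all probes tested (Benjamini-Hochberg). A probe passed at an adjusted p under 0.05, and was called where it also changed at least 2-fold.

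The dissection was checked first. Of 12 hippocampal neuron markers on the array, 11 were higher in control hippocampus than in control prefrontal cortex and 11 were higher than in control striatum. Of 10 striatal neuron markers, 0 were higher than in either region. The summed signal of the 12 was 37.2, 39.4 and 36.4 times the array's 75th percentile in streptozotocin arrays. In control arrays it was 33.2, 34.8 and 28.6 times. None of the 12 passed between the groups (median difference 0.03), and the part of dissection in these sums was not tested. One array stood apart. All 9 choroid plexus markers were highest in control replicate 3. Transthyretin (Ttr), the main secreted protein of the choroid plexus, had levels of 1.58, 1.65 and 1.53 in the streptozotocin arrays, against 1.11, 1.35 and 6.89 in the control arrays. The summed signal of the 9 markers, in multiples of the array's 75th percentile, was 3.92, 4.32 and 3.86 in the streptozotocin arrays and 3.21, 3.57 and 138 in the control arrays. None of the 8 choroid plexus markers tested passed (median difference -1.43), and results are given below with and without that array where its removal changes them. The arrays were on different slides: streptozotocin replicates 1, 2 and 3 on slides 7, 5 and 6, and control replicates 1, 2 and 3 on slides 2, 1 and 2, so that slide and treatment cannot be told apart within the hippocampus.

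**Figure D1:**
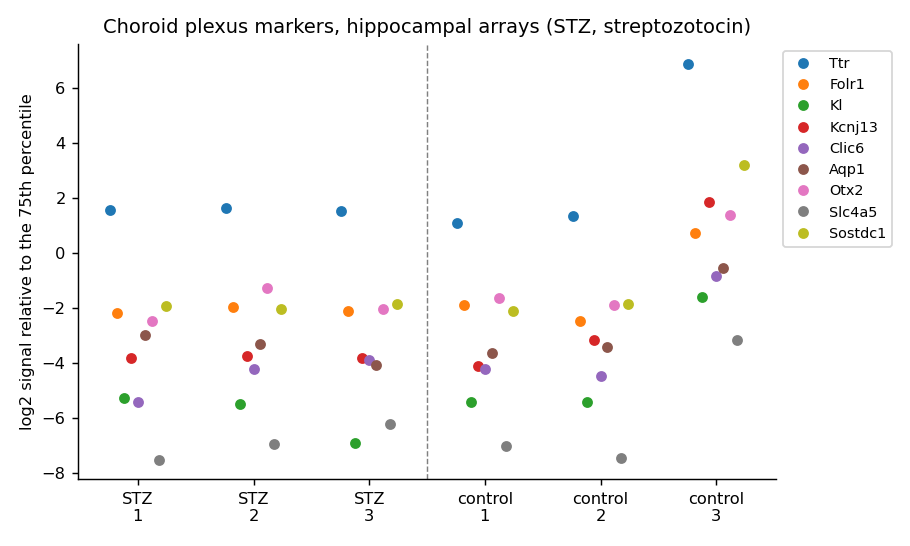
Level of 9 choroid plexus markers (log2 signal relative to the array's 75th percentile) on each of the 3 streptozotocin (STZ) and 3 control arrays of the hippocampus; 1 point per marker and array. All 9 points are highest in control replicate 3, where Ttr reached 6.89, against 1.53 to 1.65 in the streptozotocin arrays.

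Streptozotocin-treated hippocampus differed from control hippocampus in 202 called probes, 0.662% of those tested. Of these, 128 (0.42%) were higher and 74 (0.243%) were lower. At an adjusted p alone 744 probes passed (2.44%), 449 higher (1.47%) and 295 lower (0.967%). The 202 called probes held 80 RefSeq genes, 50 higher and 30 lower, and 122 probes were not matched to a RefSeq gene. In 39 of the 202, one group had no spot well above background; these probes entered the test through the brighter group alone, so that their adjusted p rests on values near background in the other. In 201 of the 202 the 3 streptozotocin values lay wholly above or below the 3 control values, which was also so for 30.4% of all probes tested. The median probe differed by 0.02 on the log2 scale. Without control replicate 3 the count was 135 (90 higher, 45 lower), and 127 of these were among the 202. Where the 2 hippocampal groups alone were fitted, 151 probes were called. The t-test of the study's methods called 245 probes at an unadjusted p under 0.05 and 2-fold, and 0 after Benjamini-Hochberg adjustment (lowest adjusted p 0.10), with 4873 probes at an unadjusted p under 0.05.

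Probes of 7 genes described below are printed as the array files hold them, in lower case, since a level on this platform is the signal of 1 short sequence and not of a whole transcript. S100b had the largest increase and Trim16 the largest decrease of the genes named, and Ucp3, Alb and Sncg passed in all 3 regions measured. Camk2a and Dio3 are shown with both of their tested probes because these gave different values.
S100b: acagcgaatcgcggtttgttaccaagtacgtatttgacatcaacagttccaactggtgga
Ucp3: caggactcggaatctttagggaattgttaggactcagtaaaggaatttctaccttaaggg
Alb: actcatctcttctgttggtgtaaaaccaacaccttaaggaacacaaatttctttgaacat
Trim16: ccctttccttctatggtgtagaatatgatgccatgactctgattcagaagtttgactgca
Sncg: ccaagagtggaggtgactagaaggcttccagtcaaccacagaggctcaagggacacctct
Camk2a, called probe: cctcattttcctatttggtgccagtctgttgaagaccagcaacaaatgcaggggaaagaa
Camk2a, other probe: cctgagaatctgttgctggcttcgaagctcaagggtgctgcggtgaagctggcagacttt
Dio3, called probe: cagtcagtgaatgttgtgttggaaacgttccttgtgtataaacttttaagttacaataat
Dio3, other probe: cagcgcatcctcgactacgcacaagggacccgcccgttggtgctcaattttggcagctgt

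S100b, a calcium-binding protein of astrocytes, had the largest difference of any probe tested. Its level was 1.54, 1.95 and 1.74 in the streptozotocin arrays, against -4.42, -4.32 and -4.38 in the control arrays. The groups lay far apart and each was tight, a 69.5-fold difference (log2 difference 6.12, SE 0.20, adjusted p = 2.8e-14 by limma). S100b was the only one of 10 astrocyte markers that passed. The median of the 10 was 0.15 and their summed signal was 129 to 162 times the 75th percentile in streptozotocin arrays and 116 to 125 times in control arrays. Of the 10, 7 were above 0 and the lowest was -0.54. Cells were not counted, and the part of astrocyte number in the S100b value was not tested. The mean control level of S100b was -4.38 in hippocampus, -4.13 in prefrontal cortex and -3.66 in striatum. The other astrocyte markers had mean levels between -0.57 (Aqp4) and 5.71 (Slc1a3) in control hippocampus. Why the S100b probe read so low in control arrays was not tested. The array had 1 probe for S100b, printed above, so no second probe bears on its value.

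The probe of Ucp3, a mitochondrial carrier protein best known from muscle, was well above background on all streptozotocin arrays and on 0 of 3 control arrays. Levels were -4.04, -3.86 and -4.43 in streptozotocin arrays, and -6.87, -8.14 and -6.94 in control arrays. The difference was at least 3.22-fold higher in streptozotocin, a lower bound taken against the dimmest probes well above background on each control array (adjusted p = 3.2e-06). Fabp4, a fatty acid carrier of adipocytes, macrophages and endothelium, was likewise measured only in streptozotocin arrays (-5.14, -4.94 and -4.92, against -7.08, -6.47 and -6.97 in control arrays; at least 1.73-fold higher, adjusted p = 0.0030). Albumin (Alb), the main plasma protein made by the liver, was 4.17-fold higher. Its level was 1.37, 1.83 and 1.48 in streptozotocin arrays, against -0.60, -0.24 and -0.65 in control arrays (SE 0.19 on the log2 scale, adjusted p = 1.8e-06). The array's other 2 probes for Alb were not well above background on any hippocampal array.

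Ccl6 and Ptpn22 were also among the 15 largest increases. Ccl6, a chemokine of myeloid cells in rodents, had levels of -1.26, -0.67 and -1.0 in streptozotocin arrays, against -2.82, -3.42 and -3.51 in control arrays, a 4.83-fold increase (SE 0.20, adjusted p = 5.6e-07). The probe of Ptpn22, a tyrosine phosphatase of lymphocytes and myeloid cells, was at least 3.66-fold higher (-3.96, -3.54 and -4.15 in streptozotocin arrays, against -5.85, -5.78 and -5.65 in control arrays, none of the control spots well above background; adjusted p = 0.00013). None of 11 microglial markers passed. Their median difference was 0.07, and their summed signal overlapped between the groups (40.4 to 51.1 times the 75th percentile in streptozotocin arrays and 35.7 to 44.9 times in control arrays).

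The other genes of the 15 largest increases had varied functions. Cdc25a, a phosphatase that drives entry into S phase, was at least 2.98-fold higher, and Pdilt, a testis chaperone of the endoplasmic reticulum, at least 3.45-fold higher. Both were well above background on 3 streptozotocin arrays and 0 control arrays. Vezf1, a zinc finger factor of vascular endothelium, had levels of 0.16, 0.56 and 0.54 in streptozotocin arrays, against -1.73, -1.37 and -1.27 in control arrays (3.67-fold, SE 0.15, adjusted p = 1.1e-07). Prpf19, a splicing factor and ubiquitin ligase, was 3.65-fold higher, Mageh1, of the MAGE family, 3.75-fold and Qrich2, a protein of the sperm tail, 4.22-fold. Marf1, which limits RNAs in the oocyte, was 3.1-fold higher with 1 probe, while its other 2 tested probes gave log2 differences of 0.36 and -0.39 and did not pass. Ing5, a chromatin reader, and the olfactory receptor Olr951 were dim, each well above background on 1 control array, and passed in 2 of the 6 fits that left out 1 array.

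Trim16, a ubiquitin ligase of the response to damaged membranes and oxidative stress, led the decreases. Its level was -5.04, -5.64 and -4.75 in streptozotocin arrays, against -2.05, -1.62 and -1.64 in control arrays. The 2 groups were separated by more than 2 log2 units, a 10.3-fold decrease (log2 difference -3.37, SE 0.25, adjusted p = 3.5e-08). The array's other probe for Trim16 was well above background on 0 streptozotocin arrays and 1 control array, and was not tested. Ascl3, a basic helix-loop-helix factor known from salivary gland ducts, was at -4.19, -4.07 and -3.62 in streptozotocin arrays and at -1.13, -1.67 and -1.56 in control arrays (5.68-fold lower, adjusted p = 1.8e-07). The called probes of both genes were dim in the treated hippocampus.

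Sncg encodes gamma-synuclein, the neuronal relative of alpha-synuclein. Its level was 0.07, 0.07 and 0.00 in streptozotocin arrays, against 2.18, 1.37 and 1.43 in control arrays, a 3.06-fold decrease (log2 difference -1.61, SE 0.33, adjusted p = 0.011). The 3 treated pools were almost equal and the control pools were spread, with replicate 1 the highest; without control replicate 1 the difference was -1.35 (adjusted p = 0.066). Dio3, the deiodinase that inactivates thyroid hormone, was at -2.11, -1.68 and -1.95 in streptozotocin arrays and at -0.68, -0.38 and -0.46 in control arrays (2.65-fold lower, adjusted p = 0.0043). The other Dio3 probe gave -0.50 (SE 0.30, adjusted p = 0.49).

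Further genes of the 15 largest decreases had smaller changes than Trim16 and Ascl3. Selenoi, an enzyme of phosphatidylethanolamine synthesis, was 2.76-fold lower (-3.77, -3.88 and -3.76 in streptozotocin arrays, against -2.31, -2.31 and -2.39 in control arrays; adjusted p = 8.3e-06), and Sgms2, a sphingomyelin synthase, at least 1.42-fold lower, with no streptozotocin spot well above background. Plagl1, an imprinted zinc finger factor, was 2.85-fold lower (adjusted p = 0.016), but passed in only 3 of 6 fits that left out 1 array, with an adjusted p of 0.094 without control replicate 2. Slc26a7, an anion exchanger, was at least 2.08-fold lower (adjusted p = 0.0027), again with no streptozotocin spot well above background, and Rhoj, a small GTPase of endothelium, 2.75-fold lower.

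Ccn3, a matricellular protein, was at 3.34, 3.40 and 3.37 in streptozotocin arrays and 4.49, 4.86 and 4.48 in control arrays (2.37-fold lower, SE 0.21 on the log2 scale, adjusted p = 0.0037). Plac9, a small secreted protein, was 2.70-fold lower and the integrin subunit Itga3 was 2.25-fold lower, with its other probe at -0.58 (adjusted p = 0.81). Decorin (Dcn), a proteoglycan of the meninges, was at 0.54, 0.37 and 0.44 in streptozotocin arrays and 0.92, 1.98 and 1.82 in control arrays (2.17-fold lower, adjusted p = 0.013). The summed signal of 9 meningeal and fibroblast markers was 11.1 to 12.5 times the 75th percentile in streptozotocin arrays and 11.4 to 28.7 times in control arrays, so that the groups overlapped. The highest sum was in control replicate 3, where Igf2 had a level of 4.02. Dcn was the only one of these 9 markers that passed, and without control replicate 3 it did not (adjusted p = 0.085). The part of adhering meninges in the Dcn value was not tested.

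**Figure D2:**
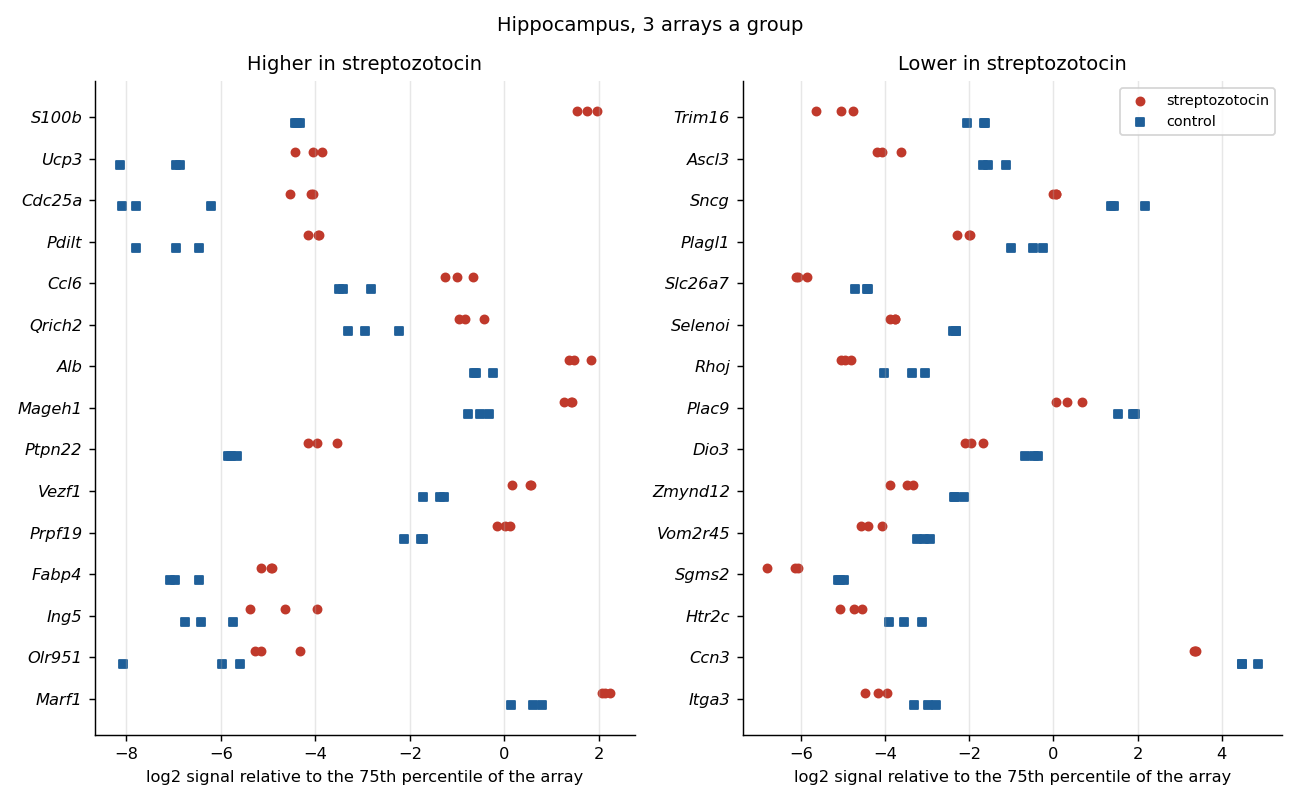
Level (log2 signal relative to the array's 75th percentile) of the genes with the 15 largest increases and 15 largest decreases among called probes, for 3 streptozotocin arrays (circles) and 3 control arrays (squares) of the hippocampus. In each row the groups do not overlap, from S100b (1.54 to 1.95 in streptozotocin, -4.42 to -4.32 in control) to Itga3.

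Insulin signalling bears most directly on a model of insulin loss. Of 32 tested genes of insulin and insulin-like growth factor signalling, 1 rose and 2 fell (3.12% and 6.25%, against 1.25% and 0.979% of 12771 genes tested with 1 probe each), and the median was -0.09, against 0.01 over all genes. Insr, the insulin receptor, had levels of -4.74, -4.90 and -4.85 in streptozotocin arrays, against -5.40, -5.76 and -5.61 in control arrays, a difference of 0.76 (SE 0.15, adjusted p = 0.0070). Its probe was dim, well above background on 3 streptozotocin arrays and 1 control array. Without control replicate 2 it just missed the test (adjusted p = 0.055 by limma). With another background correction (normexp) the difference was 0.21 and did not pass. With slides 5 to 7 as a covariate it did not pass either (adjusted p = 0.26). Igfbp5, a binding protein of insulin-like growth factors, fell by 0.57 (SE 0.10, adjusted p = 0.0021), and Gsk3a, the alpha isoform of glycogen synthase kinase 3, fell by 0.67 (SE 0.14, adjusted p = 0.011, and 0.054 without control replicate 3).

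The other genes of the hormone and its receptors did not pass. The Ins1 probe read -1.37, -2.18 and -2.36 in streptozotocin arrays and -1.66, -1.82 and -1.83 in control arrays (difference -0.20, adjusted p = 0.87), and Ins2 differed by -0.16 (adjusted p = 0.92). Irs2, an adaptor of the receptor, differed by 0.02 (SE 0.15). Igf1 differed by 0.37 (SE 0.16, adjusted p = 0.25) and its receptor Igf1r by -0.27 (SE 0.16, adjusted p = 0.49). The probe of Irs1 was not well above background on any of the 6 arrays. Galanin (Gal), an inhibitory neuropeptide, had levels of 1.70, 2.06 and 1.79 in streptozotocin arrays, against 0.69, 0.83 and 0.67 in control arrays. These did not overlap, yet the difference of 1.12 (SE 0.34, adjusted p = 0.094 by limma) missed the test. The SE rests on a spread shared by all 9 groups. The standard deviation within the hippocampal groups was 0.19 (streptozotocin) and 0.09 (control). Of 12 other settings checked for Gal, it passed in 1, where the 2 hippocampal groups were fitted alone.

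Genes of fuel use moved singly. In ketone body use and fatty acid oxidation, 2 of 26 genes rose (7.69%, against 1.25% of all genes) and 0 fell, although the list's median was -0.14. Besides Ucp3 this was Hadh, an enzyme of beta oxidation (0.51, SE 0.13, adjusted p = 0.044), which passed in 0 of the 6 fits that left out 1 array (adjusted p up to 0.21, without streptozotocin replicate 2). The other Hadh probe gave 0.46 (adjusted p = 0.061). None of 30 genes of glucose transport and use passed; the nearest were Pfkl, the liver-type phosphofructokinase (-0.58, adjusted p = 0.053), and Slc5a1, a sodium-glucose transporter (1.11, adjusted p = 0.33). In cholesterol synthesis, Lss, which closes the sterol ring, rose by 0.59 (adjusted p = 0.012) and Nsdhl, a later enzyme, fell by 0.45 (adjusted p = 0.046), with 22 genes tested and a median of -0.06. Lss passed in 3 of the 6 fits that left out 1 array (adjusted p up to 0.066, without streptozotocin replicate 1) and Nsdhl in 0 (up to 0.21, without the same array). Txnip, which binds thioredoxin and is known to be induced by glucose, rose by 0.63 (0.68, 1.04 and 0.60 in streptozotocin arrays, against 0.23, 0.02 and 0.20 in control arrays; SE 0.16, adjusted p = 0.046) and was the only one of 29 antioxidant genes to pass. Txnip did not pass with any array left out (adjusted p up to 0.22, without streptozotocin replicate 2).

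Among genes of immune response, interferon-stimulated genes stood above 0 in 19 of 24 (79.2%, against 51.8% of all genes), with a median of 0.34, and 1 of them rose. Rtp4, a chaperone of receptors induced by interferon, rose by 0.90 (adjusted p = 0.038), and did not pass in any fit that left out 1 array. Of 26 cytokines and chemokines 2 rose and 1 fell (7.69% and 3.85%, against 1.25% and 0.979% of all genes). Il1b, the inflammatory cytokine interleukin 1 beta, rose by 1.08 (-4.28, -3.93 and -3.86 in streptozotocin arrays, against -4.75, -5.67 and -4.89 in control arrays; adjusted p = 0.013); its other probe gave 0.60 (adjusted p = 0.35). Cxcl12, a chemokine of vessels and granule cells, rose by 0.53 (adjusted p = 0.027), and Tgfb1, transforming growth factor beta 1, fell by 0.90 (adjusted p = 0.042). The other Cxcl12 probe gave 0.29 (adjusted p = 0.40). With 1 array left out, Il1b passed in 3 of 6 fits (adjusted p up to 0.096, without control replicate 2), Cxcl12 in 2 and Tgfb1 in 0 (up to 0.13 and 0.21, without control replicate 3). None of 18 genes of antigen presentation passed with the probe that stood for them, with a median of 0.21; a second probe of the class I gene RT1-A2 rose by 0.88 (adjusted p = 0.014).

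Synaptic genes moved in both directions. Of 32 genes of synapse and plasticity, 2 rose and 1 fell (6.25% and 3.12%, against 1.25% and 0.979% of all genes), with a median of -0.04. Camk2a, the kinase subunit of long-term potentiation, was at 2.00, 2.27 and 2.14 in streptozotocin arrays and 0.58, 1.10 and 0.75 in control arrays with its called probe (1.33, SE 0.29, adjusted p = 0.018), while the other probe printed above gave 0.16 (adjusted p = 0.77). Sv2b, a synaptic vesicle protein, rose by 1.61 with 1 probe (adjusted p = 0.020) and gave 0.47 and -0.15 with the other 2. Syn1, which tethers synaptic vesicles, fell by 0.95 (-0.77, -0.91 and -0.82 in streptozotocin arrays, against 0.06, 0.22 and 0.08 in control arrays; SE 0.18, adjusted p = 0.0043). Without control replicate 3, Camk2a and Sv2b did not pass (adjusted p = 0.073 and 0.10) and Syn1 still passed (adjusted p = 0.020). Over the 6 fits that left out 1 array, Camk2a passed in 2 (adjusted p up to 0.079, without streptozotocin replicate 2) and Sv2b in 1.

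Receptors of transmitters moved singly too. Of 26 glutamate receptor genes 1 passed. Grin1, the obligatory subunit of NMDA receptors, fell by 0.64 (adjusted p = 0.0084 by limma). Its level was 3.03, 3.17 and 3.09 in streptozotocin arrays, against 3.77, 3.75 and 3.69 in control arrays. The other Grin1 probe gave -0.32 (SE 0.35, adjusted p = 0.78). Monoamine and acetylcholine receptors had a median of -0.21 over 29 genes, of which 1 passed. This was Htr2c, the serotonin 2C receptor, at -4.55, -5.06 and -4.74 in streptozotocin arrays and -3.91, -3.55 and -3.13 in control arrays (2.38-fold lower, adjusted p = 0.020). Htr2c is also very abundant in choroid plexus, and its highest control value was in replicate 3; without that array the difference was -1.05 (adjusted p = 0.13). The call was also lost without control replicate 2, streptozotocin replicate 2 or streptozotocin replicate 3 (adjusted p = 0.071, 0.11 and 0.059). None of 30 genes of GABA receptors and interneurons passed, nor did any of 31 neuropeptide and feeding genes.

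Of 23 genes of amyloid precursor processing and tau, 1 rose and 2 fell (4.35% and 8.7%, against 1.25% and 0.979% of all genes). Aph1a, a subunit of gamma-secretase, was higher by 1.29 with 1 probe (adjusted p = 0.039) and by 0.42 with the other (adjusted p = 0.39). Aplp2, a relative of the amyloid precursor, fell by 0.46 (adjusted p = 0.040), and its other probe gave -0.32 (adjusted p = 0.29). Sncg was the third. Neither Aph1a nor Aplp2 passed in any fit that left out 1 array (adjusted p up to 0.15, without control replicate 1, and up to 0.16, without control replicate 2). Of 28 neurotrophin and growth factor genes, Ret, the receptor of the glial cell line-derived neurotrophic factor family, rose by 0.70 with 1 of 3 probes (adjusted p = 0.039), and its other probes gave 0.01 each. Tgfb1, named above, was the only member of that list that fell. Ret passed in 0 of the 6 fits that left out 1 array (adjusted p up to 0.17, without control replicate 2).

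Hormone-responsive and activity-regulated lists gave few calls. None of 24 glucocorticoid receptor targets passed (median 0.14), nor did any of 20 circadian clock genes (median -0.09) or 27 heat shock and chaperone genes (median 0.04). Immediate early genes, which neurons induce within minutes of firing, were above 0 in 23 of 28 (82.1%, against 51.8% of all genes; median 0.15), and 1 passed: Dusp6, a phosphatase of the ERK kinases, which rose by 0.51 (adjusted p = 0.014, and 0.062 without control replicate 3). Of 11 thyroid hormone genes only Dio3 passed. None of 28 genes of neurogenesis and cell cycle passed in their list, in which Cdc25a was not included, and none of 24 extracellular matrix genes did.

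**Figure D3:**
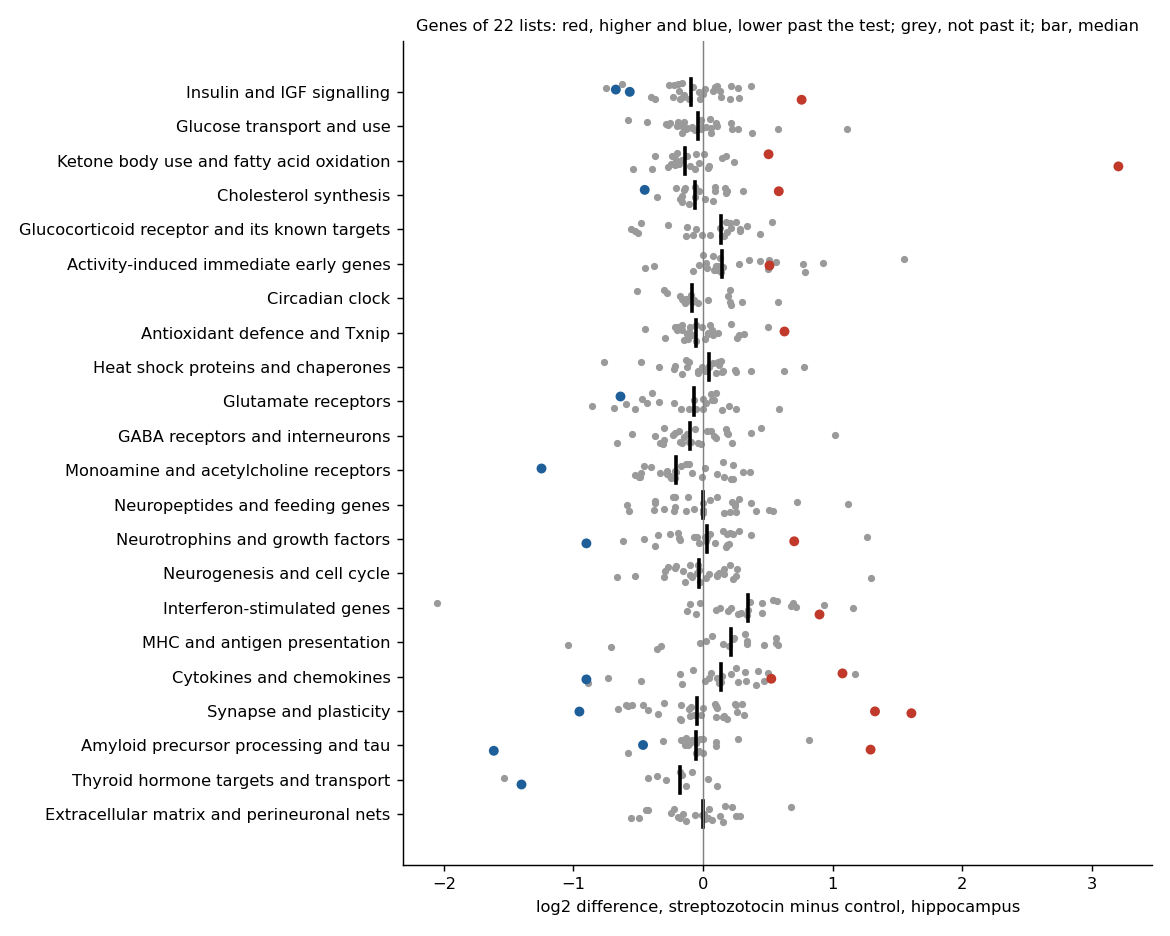
Log2 difference (streptozotocin minus control, hippocampus) of each tested gene of 22 lists, 1 point per gene; red points rose and blue points fell past an adjusted p of 0.05, grey points did not pass, and the black bar is the median. Medians lay between -0.21 (monoamine and acetylcholine receptors) and 0.34 (interferon-stimulated genes), and the point farthest from 0 is Ucp3.

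Further called genes were picked out after their values were seen and are given as a description. Among them were Cd48, a leukocyte surface protein (1.05, adjusted p = 0.0041), Pilra, an inhibitory myeloid receptor (1.08, adjusted p = 0.00024), and Pf4, platelet factor 4 (1.05, adjusted p = 0.0069), each past the test in all 6 fits that left out 1 array. With normexp, Cd48 passed (adjusted p = 0.041) and Pilra and Pf4 did not (0.62 and 0.77). With slides 5 to 7 as a covariate, Pilra passed (adjusted p = 0.048) and Cd48 and Pf4 did not (0.52 and 0.60). Gjd2, the connexin of electrical synapses, rose by 1.52 (-1.39, -1.47 and -1.48 in streptozotocin arrays, against -3.08, -2.93 and -2.88 in control arrays; adjusted p = 0.0011). Chrna5, a nicotinic receptor subunit, rose by 1.40 and Kcnq3, a subunit of the M-current channel, by 1.22. Hcn2, a pacemaker channel subunit, fell by 1.06 (adjusted p = 0.039), a call lost in each fit that left out 1 array. The other Hcn2 probe gave -0.48 (adjusted p = 0.27).

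Klf9, a transcription factor induced by glucocorticoid and thyroid hormone, rose by 1.08 with 1 probe (adjusted p = 0.00066) and gave -0.13 with the other (adjusted p = 0.80). Depp1, a target of FOXO factors, rose by 1.45 (adjusted p = 0.012, and 0.092 without control replicate 3). Bcat1, which transaminates branched-chain amino acids in neurons, was at 1.83, 1.63 and 2.04 in streptozotocin arrays and 2.80, 3.17 and 2.87 in control arrays (2.17-fold lower, adjusted p = 0.00051). Ftcd, of histidine breakdown, rose by 1.19 and Aadat, which makes kynurenic acid, by 1.29. Syt12, a synaptotagmin, fell by 1.15 (adjusted p = 0.0060, and 0.0504 without control replicate 3). Lef1, a factor of Wnt signalling with strong expression in thalamus, fell by 1.03 (adjusted p = 0.0041). Its mean control level was -3.49 in hippocampus, -3.36 in prefrontal cortex and -3.45 in striatum. Within slides 5, 6 and 7 the prefrontal cortex gave differences of -1.31, -0.94 and -1.14. The summed signal of 5 thalamic markers, Lef1 among them, was 6.03 to 7.05 times the 75th percentile in streptozotocin arrays. In control arrays it was 8.28 to 9.13 times. Of the 5, 1 was below background on all 6 arrays, and of the 4 tested 1 was above 0. The part of adjoining thalamus was not tested.

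Genes with more than 1 tested probe gave a check within the array. Of the 80 genes of called probes, 18 had at least 2 tested probes. In 13 of the 18 every tested probe had the same sign, and in 1 every tested probe passed. Probes of a gene can lie in different transcripts or exons, and their places on the transcripts were not used here.

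The effect of streptozotocin was then set beside that in both other regions, each against its own control arrays. The prefrontal cortex had 292 called probes (0.957%) and the striatum 245 (0.803%), and 2.51% and 3.25% of probes passed there at an adjusted p alone. The hippocampus shared 81 called probes of the same direction with the prefrontal cortex, which is 40.1% of its own and 27.7% of the cortical probes, and 0 of opposite direction. It shared 63 with the striatum (31.2% and 25.7%), with 2 of opposite direction, and 50 were called the same way in all 3 regions (29 higher, 21 lower). Of the 202 hippocampal probes, 182 had the same sign in the prefrontal cortex (90.1%, against 62.2% of all probes) and 160 in the striatum (79.2%, against 43.2%). Tissue of the 3 regions came from the same groups of rats, so that the regions are not independent animals.

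S100b showed this most clearly: its log2 difference was 6.12 in hippocampus, 5.78 in cortex and 5.66 in striatum. Ucp3, Cdc25a, Ccl6, Alb and Vezf1 also passed in all 3 regions in the same direction, as did Trim16 (-3.37, -3.78 and -4.15), Ascl3 (-2.51, -2.13 and -2.41), Sncg (-1.61, -1.35 and -1.49), Selenoi, Rhoj and Sgms2. Other genes passed in the hippocampus only, among the 3 regions. Plagl1 differed by -1.51 in hippocampus, -0.16 in cortex and 0.21 in striatum, and Htr2c by -1.25, 0.04 and 0.08. Such a pattern needs the test of the difference itself. For the hippocampal minus the prefrontal effect 0 probes passed by limma (2103 at an unadjusted p under 0.05, and 0 to 85 called under other settings), and the nearest of the genes named by rule was Plac9 (-1.43 in hippocampus, -0.07 in cortex; adjusted p of the difference 0.19).

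**Figure D4:**
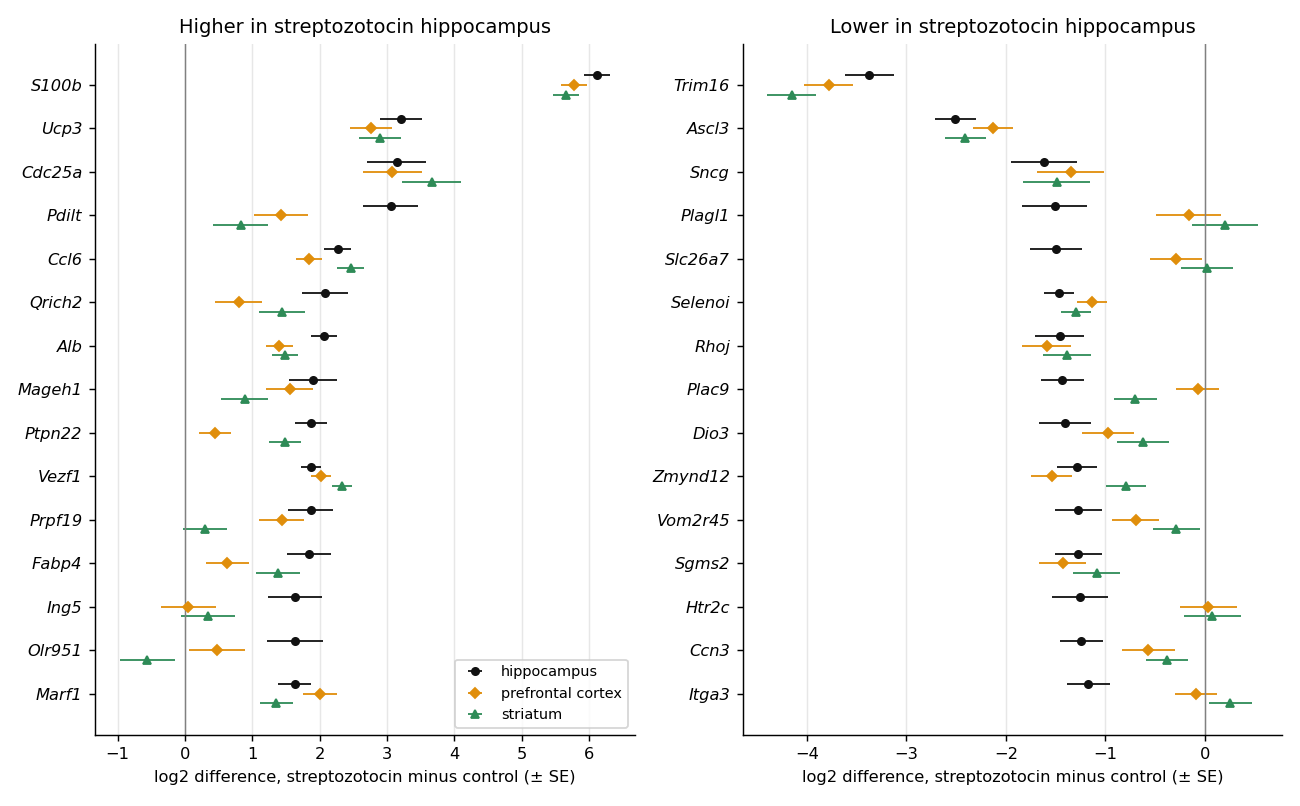
Log2 difference between streptozotocin and control arrays (± SE, 3 arrays a group) in the hippocampus (circles), prefrontal cortex (diamonds) and striatum (triangles) for the 15 largest increases and 15 largest decreases of the hippocampus. S100b lies between 5.66 and 6.12 in all regions, while Plagl1 is at -1.51 in the hippocampus and between -0.16 and 0.21 in the others.

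Between the hippocampal and the striatal effect, 249 probes were called (0.817%), and 1.84% passed at an adjusted p alone. Of the 249, 130 had a more positive and 119 a more negative difference in the hippocampus. That split turned with the scaling (74 and 126 with the 50th percentile, 127 and 159 after quantile normalization). Grin1 fell in the hippocampus (-0.64) and gave 0.32 in the striatum, a difference of -0.96 (SE 0.18, adjusted p = 0.021), and Syn1 gave -0.95 and 0.27 (difference -1.22, SE 0.25, adjusted p = 0.026). Insr gave 0.76 in the hippocampus and -0.14 in the striatum (difference 0.91), and Dcn -1.12 and 0.66 (difference -1.78). Slides ran in opposite ways in the 2 regions: streptozotocin arrays were on slides 5 to 7 in the hippocampus and 1 to 3 in the striatum, and control arrays on slides 1 and 2 in the hippocampus and 4 to 6 in the striatum. Slide and the difference between regions therefore cannot be told apart, and 2 probes were called with slides 5 to 7 as a covariate. The count ranged from 67 to 553 as arrays were left out in turn.

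**Figure D5:**
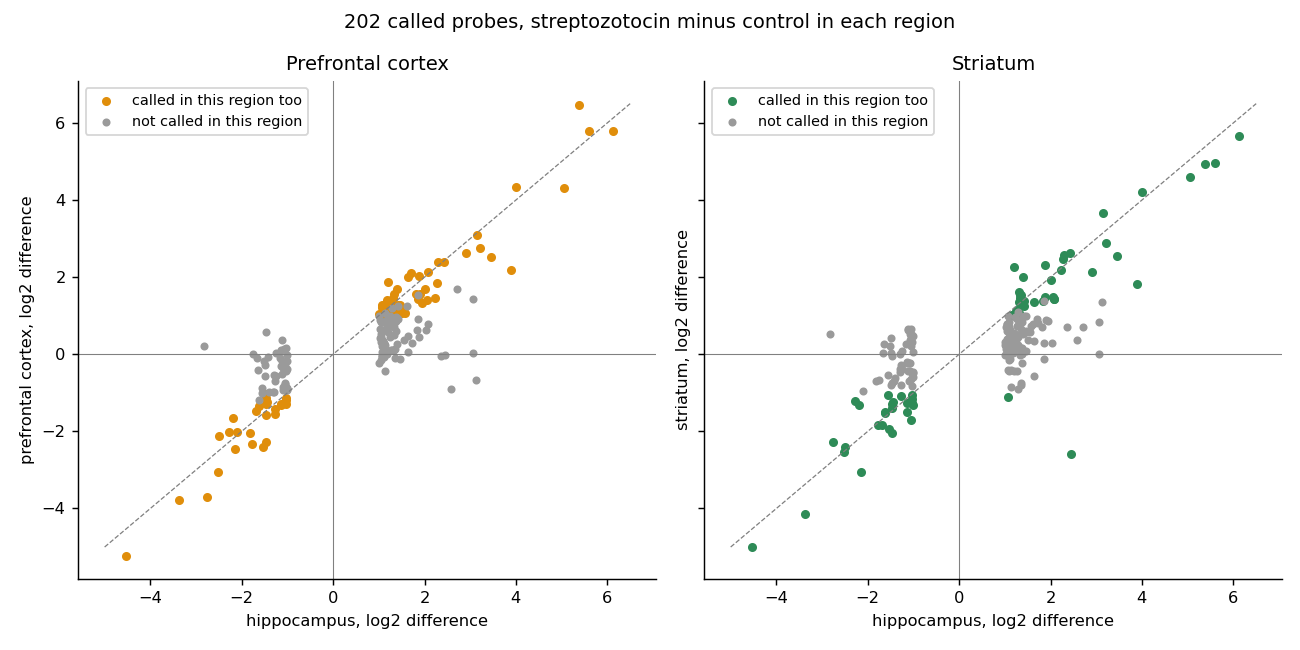
Log2 difference of the 202 probes called in the hippocampus (x axis) against the log2 difference in the prefrontal cortex or striatum (y axis), streptozotocin minus control; coloured points were also called in that region and the dashed line marks equal differences. Of these probes 182 share their hippocampal sign in cortex and 160 in striatum.

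In the prefrontal cortex, unlike the hippocampus, each of slides 5, 6 and 7 held 1 streptozotocin and 1 control array, so that the effect could be read within slides. Of the 202 hippocampal probes, 158 (78.2%) had the hippocampal direction on all 3 slides, as had 31.2% of all probes tested. The median cortical difference in the hippocampal direction was 0.85, 0.84 and 0.98 on slides 5, 6 and 7. S100b differed by 5.89, 5.48 and 5.97 on these slides, Trim16 by -3.54, -4.04 and -3.77, Ccl6 by 1.58, 2.12 and 1.83, and Alb by 0.81, 1.78 and 1.62. Plac9 differed by -0.15, 0.08 and -0.14. Arrays of these slides deviated together: deviations from the group means correlated at a mean of 0.44, 0.63 and 0.49 within slides 5, 6 and 7, against 0.02 to 0.04 within slides 1 to 4 and -0.03 between slides. With an indicator of slides 5 to 7 as a covariate, which only the control striatum arrays can estimate, 48 hippocampal probes were called, 27 of them among the 202. S100b (5.78), Ucp3, Ccl6, Alb, Vezf1, Trim16 (-3.64), Ascl3 and Selenoi still passed. With this covariate Sncg gave -0.17 (adjusted p = 0.95 by limma) and Camk2a 0.24 (adjusted p = 0.93). Within slides 5, 6 and 7 of the cortex, Sncg differed by -1.01, -1 and -2.04. Camk2a differed there by 0.565, 0.561 and 0.969.

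In the hippocampus of the Goto-Kakizaki rats, measured against the same 3 control arrays, S100b differed by -0.51, Trim16 by -3.67, Ascl3 by -2.77 and Sncg by -2.40. The 2 comparisons share their control arrays, so these values are not independent of those above.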

How the data were processed

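RNA of pooled rat hippocampi was labelled with Cy3 and hybridised to one-colour Agilent arrays. The authors scanned the arrays and deposited signal intensities of every spot made with Agilent Feature Extraction 9.1. Per the file headers the processed intensity is background-subtracted and carries no scaling from array to array. A table of values deposited with the series held the same intensity (relative difference of 0 at most, over 42429 features) and was used as an alternative. Genome build and probe positions are not given in the sources used here. The columns of mean signal and local background served the normexp alternative.

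Control spots and outlier spots were left out, spots of a probe were averaged, and log2 of the intensity minus log2 of the array's 75th percentile was taken. Between 69.3% and 74.3% of probes were well above background on the 6 arrays, and 0 probes were saturated. The number of arrays limits the precision. A model of 9 group means over 27 arrays (18 residual and 2.55 prior degrees of freedom) used limma 3.58.1 (R 4.3.3, with the data.table package, version 1.17.8); tables and figures were made with Python 3.11.15, numpy 2.4.6, pandas 2.3.3 and matplotlib 3.10.9. The fit was tested on simulated data with the real means and spread. The methods' t-test and 2-fold limit were run as an alternative.

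Of 41012 probes, 20042 were matched to RefSeq genes by accession (10735), symbol (5577) or synonym (3730). Where a gene had several probes, the one with the highest mean over hippocampal arrays stood for it in lists. Genes named are the 15 largest increases and 15 largest decreases among called probes with a gene and groups that do not overlap, up to 4 members per list that passed with the smallest p (or 2 where none passed), and Ins1, Ins2, Insr, Irs1, Irs2, Igf1, Igf1r and Gal. Some genes are not reported here and were left out of the lists. Members, lists and rule were chosen with earlier results of these data known. Where one group had no spot well above background, a fold is a lower bound: the other group's mean against the higher, per array, of the dim probe and the lowest probe well above background. Same-numbered pools were not paired: deviations of streptozotocin and control arrays with the same number correlated at -0.02, 0.01 and 0.08. Alternatives covered scaling, background correction, filters, arrays in the fit, slides, array weights and leaving out each array.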

Additional observations from a re-analysis of the deposited data

Results flagged for a closer look

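By the interaction term of the limma fit, hippocampal and striatal effects of streptozotocin differed in 249 probes and in 11 of the genes named by rule. The difference (hippocampal minus striatal effect, log2) was positive for Pdilt (2.23), Insr (0.91), Opalin, a myelin protein (0.82), and Dusp6 (0.75). It was negative for Dcn (-1.78), Slc26a7 (-1.52), Itga3 (-1.43), Syn1 (-1.22), Grin1 (-0.96), Pfkl (-0.96) and Amigo2, an adhesion protein of hippocampal pyramidal cells (-0.74). Opalin, Pfkl and Amigo2 did not pass within the hippocampus. Slides ran in opposite ways in the 2 regions, with streptozotocin on slides 5 to 7 in the hippocampus and 1 to 3 in the striatum, so that slide and these differences cannot be told apart. The count of 249 was 2 with slides 5 to 7 as a covariate, 34 with the groups alone and 0 with the replicate block.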

How the results depend on the processing

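Of the 202 hippocampal calls, counts stayed within 1.5 times under the 50th percentile, quantile normalization, the value table, outlier spots kept, 3 other filters, the region alone, the groups alone, slide as a random block, array weights and the unadjusted t-test of the methods; all 202 kept their sign wherever they were measured. Exceptions were normexp (50 called, all among the 202; the cause was not tested), slides 5 to 7 as a covariate (48), no fold threshold (744), the methods' t-test after adjustment (0) and the replicate block in the groups alone (3). The numbers do not pair the samples. Leaving out 1 array gave 135 to 191 calls.

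The hippocampal minus prefrontal effect gave 0 calls except with the regions alone (2), slides 5 to 7 as a covariate (2), array weights (85) and single arrays left out (0 to 21; 21 without prefrontal control replicate 2, 1 without hippocampal control replicate 3). The replicate block gave 0. The hippocampal minus striatal effect gave 249 calls, against 15 with normexp, 70 with the regions alone, 34 with the groups alone, 0 with the replicate block, 2 with slides 5 to 7 as a covariate, 1257 with array weights, 562 with no fold threshold and 67 to 553 with single arrays left out (67 without striatal streptozotocin replicate 3, 69 and 70 without hippocampal streptozotocin replicate 1 and control replicate 2, 105 without control replicate 3, 143 and 553 without striatal streptozotocin replicate 1 and control replicate 1, 157 without striatal control replicate 2 and 165 without hippocampal streptozotocin replicate 3).

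Of 73 named probes that passed, 73 still passed after quantile normalization, 67 with the 50th percentile, 48 with the groups alone and 21 with normexp. The number was 10 with slides 5 to 7 as a covariate, 1 with the replicate block and 52 to 58 with single arrays left out. None changed sign. With slide as a random block it was 73, but that fit took a correlation within slides of 0.011 and was close to the main one. No slide held both streptozotocin and control hippocampus, so a random block cannot separate slide from treatment. Probes near background, such as those of Ucp3, Cdc25a and Insr, are limited by their signal. With normexp the log2 difference was 0.93 for Ucp3, 0.97 for Cdc25a and 0.21 for Insr. It was 0.92 for Pdilt, 0.75 for Ptpn22 and 0.38 for Fabp4, and none of these probes passed. Some brighter probes did not pass with normexp either, at nearly the same log2 difference. Among them were Grin1 (-0.63, adjusted p = 0.28 by limma) and Aplp2 (-0.47, adjusted p = 0.63). Other bright probes passed, such as Ccn3 (-1.25) and Alb (1.97).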
